A study of Mus musculus with 6 samples.

Results

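The 41 genes examined here encode subunits of the Polycomb complexes, histone methyltransferases, 2 histone acetyltransferases and 2 histone demethylases. They were taken by gene name from a fixed list, and all 41 were among the 19270 genes of the deposited table. RNA had been sequenced from the proximal end of the incisor, dissected for its mesenchyme, in 3 control and 3 *Arid1b* mutant mice, collected 4 days after tamoxifen at 1 month of age. The mutants carried *Gli1-CreER* and floxed *Arid1b* alleles (*Gli1-CreER;Arid1b* fl/fl), so that recombination is driven from the *Gli1* locus in GLI1+ cells of both mesenchyme and epithelium, and other cells keep the gene. The labels call the controls wild type, whereas the study's methods describe *Arid1b* fl/fl mice, and both groups received tamoxifen. ARID1B itself is a subunit of the BAF complex, a chromatin remodeler.

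The gene table holds 1 mean per gene and group and no value per mouse. Each value below is therefore the authors' mean of 3 libraries on a normalized scale, without an SD, and no difference was tested across mice. The scale is normalized signal with an upper quartile of 44.57 to 44.58 in all 6 libraries. Ratios are mutant over control. A gene counted as measured well enough for a ratio when its mean over both groups was at least 10, which held for 10311 genes and for 39 of the 41 members.

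Polycomb proteins keep developmental genes silent and act in 2 families of complexes. Polycomb repressive complex 2 (PRC2) methylates lysine 27 of histone H3, with EZH1 or EZH2 as the enzyme. Polycomb repressive complex 1 (PRC1) ubiquitylates histone H2A through RNF2 or RING1, and its CBX subunits can read the PRC2 mark. The KMT2 and SETD1 enzymes methylate lysine 4 of histone H3 at active promoters and enhancers and, like BAF complexes, oppose Polycomb silencing. In the continuously growing incisor, stem cells near the neurovascular bundle feed transit-amplifying cells, which give rise to odontoblasts and dental pulp.

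*Arid1b* (chromosome 17, 4994332 to 5347656 on GRCm38) had an authors' mean of 97.6 in control and 38.0 in mutant mice, a log2 ratio of -1.36. In bulk tissue such as this, fewer cells of a type and less RNA per cell cannot be told apart. None of the 39 members differed by more than 1.5-fold between the group means. Among all 10311 genes, 2.15% were higher in the mutants by more than that and 0.912% were lower. None of the 39 reached a difference of 1.2-fold either, whereas 6.54% of all genes were higher and 6.37% lower by more than 1.2-fold. The log2 ratios of the 39 members ran from -0.20 for *Cbx8* to 0.25 for *Pcgf5*, with a median of 0.01, and the median of all genes was 0.00. There were 21 members higher (53.8%) and 18 lower in the mutants, and 50.3% of all genes past the filter were higher. A log2 ratio within 0.1 of zero was found for 27 of the 39 members (69.2%) and for 56.9% of all genes, shares that are not matched on level.

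The spread of the ratios depends on the level of a gene, and each member was therefore also set beside the 500 genes nearest to it in mean. Of all 10311 genes, 5.44% lay outside the central 95% of their neighbours, and none of the 41 members did. The percentiles of the members ran from 8.80 for *Cbx8* to 88.8 for *Pcgf3*. In the median over the 41 members, 44% of the neighbours had a smaller absolute log2 ratio, so at like level the members were close to the middle. Among the neighbours of each of the 39 members past the filter, between 7.40% and 23.0% differed by more than 1.2-fold, with a median of 10.6%. For *Pcgf1* and *Phf19*, under the filter, these shares were 29.6% and 38.0%. These ranges combine the spread between mice with real differences, and they do not replace a test on replicates.

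**Figure D1:**
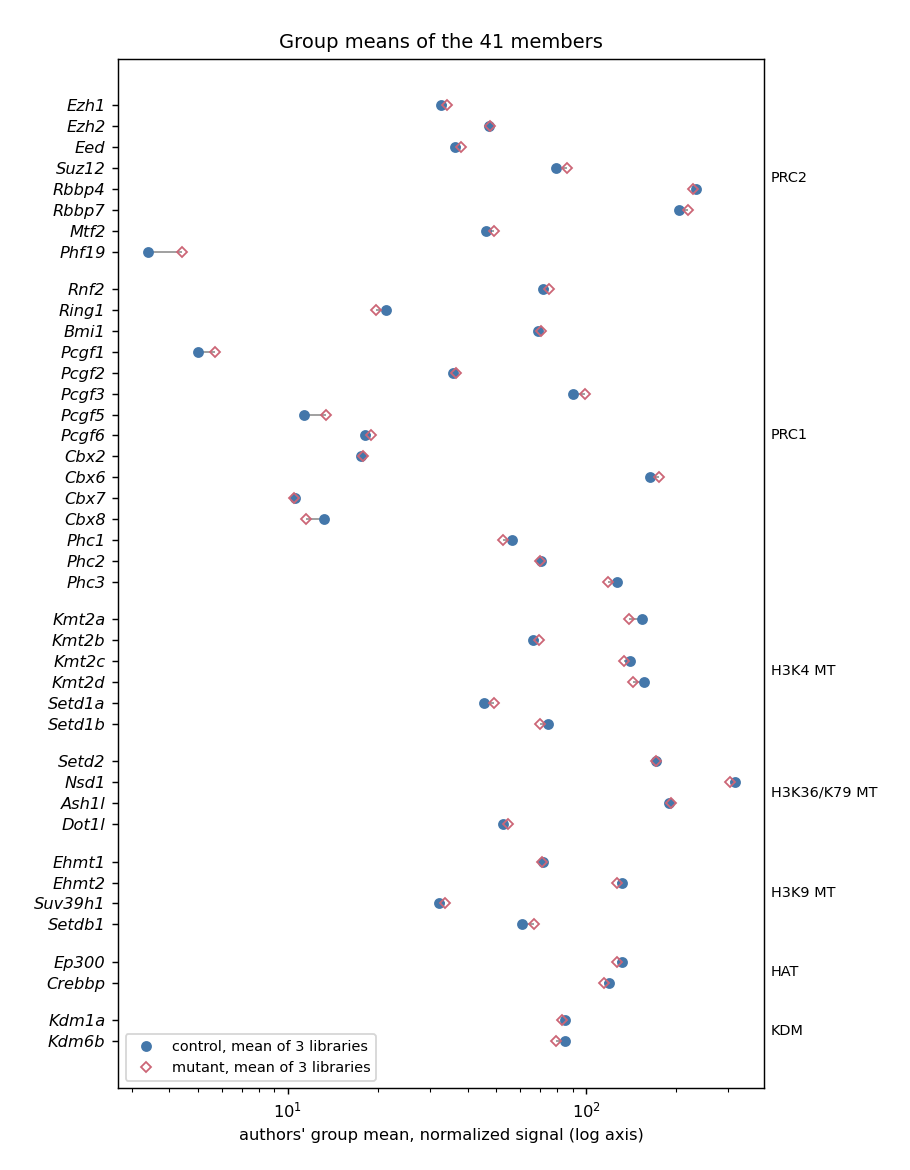
Authors' group means of the 41 members in normalized signal on a log axis, with filled circles for the control mean and open diamonds for the mutant mean of 3 libraries each; MT, methyltransferases; HAT, acetyltransferases; KDM, demethylases. Both symbols nearly coincide for most genes, and the levels span from 3.38 for *Phf19* to 315.6 for *Nsd1* in the controls.

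**Figure D2:**
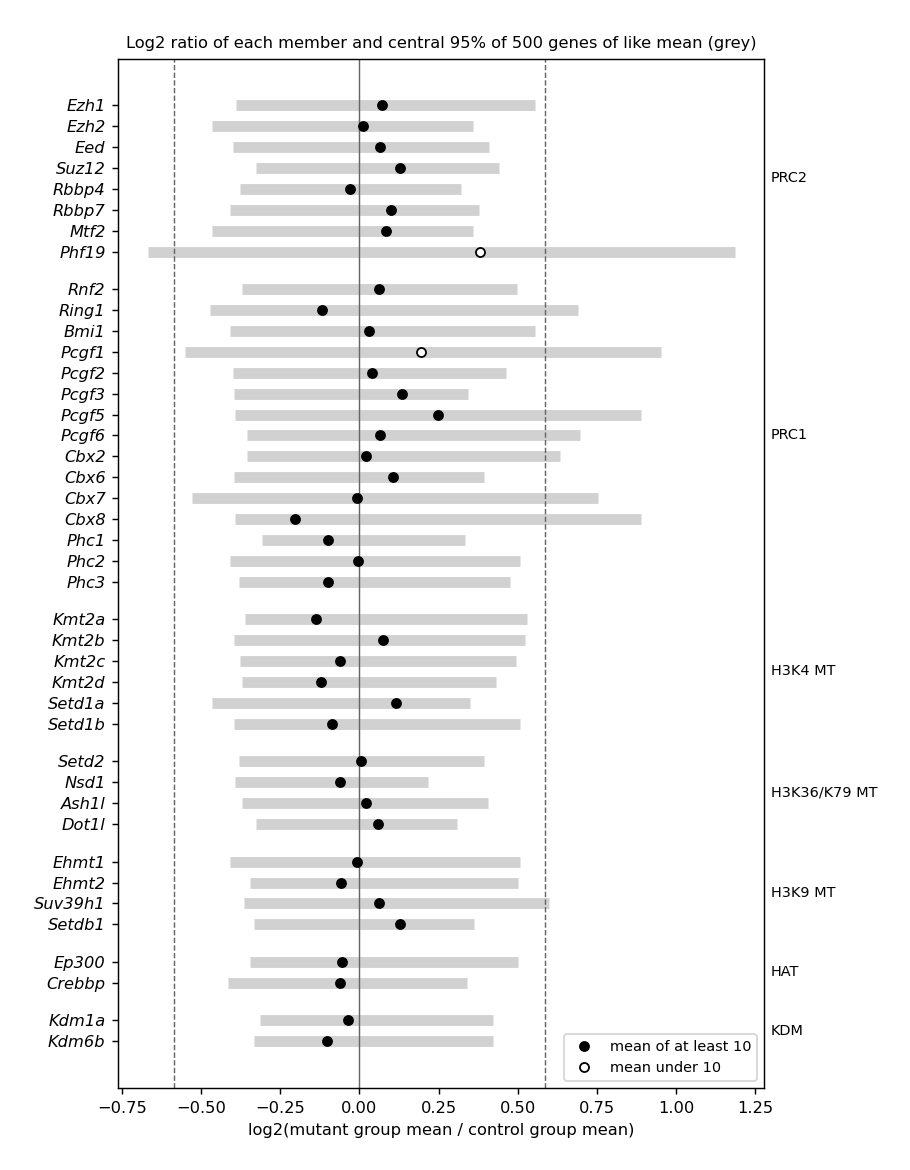
Log2 ratio of mutant over control mean for each member, as points, with grey bars for the central 95% of the 500 genes nearest in mean and dashed lines at 1.5-fold. All 41 points lie within their grey bars, including *Phf19* and *Pcgf1*, which are drawn open because their mean is under 10.

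Among the PRC2 enzymes, *Ezh2*, the main methyltransferase of dividing cells, had a control mean of 47.1 and a mutant mean of 47.5 (log2 ratio 0.01). *Ezh1*, its paralog with weaker activity, had means of 32.6 and 34.2 (0.07). Per kilobase of exonic length the order was clear in both groups: *Ezh2* stood at 16.8 and 16.9, and *Ezh1* at 5.36 and 5.63. *Ezh2* thus made up 75.8% of the combined level of both enzymes in the controls and 75.1% in the mutants. With the length of the longest coding transcript in place of the exonic length, these shares were 68.5% and 67.7%.

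The 4 other core subunits had log2 ratios from -0.03 to 0.13. *Suz12* (chromosome 11, 79993106 to 80034123), the scaffold of the complex, had the highest ratio of the PRC2 members past the filter, with means of 79.1 in control and 86.5 in mutant mice (log2 ratio 0.13). *Eed*, which binds the methyl mark and stimulates the enzyme, had means of 36.3 and 37.9 (0.06). The histone-binding subunits *Rbbp4* and *Rbbp7*, which also serve in other chromatin complexes, had the highest levels of the complex per kilobase as well, at 52.9 and 87.1 in the controls, with control means of 233.1 and 204.4 and mutant means of 228.3 and 219.2. *Rbbp4* was the single one of the 7 PRC2 members past the filter with a lower mean in the mutants, at -0.03, and its sign changed when the groups were scaled to the total of all genes. Of the accessory subunits, *Mtf2*, which guides PRC2 to CpG islands, had means of 46.2 and 48.9. Its paralog *Phf19* was close to the bottom of the range, at 3.38 and 4.40, and its log2 ratio of 0.38 lay at percentile 84.6 of its neighbours, whose central 95% ran from -0.67 to 1.19.

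*Ezh2* and *Eed* are known targets of E2F factors, which drive cell cycle genes, and the promoters of the members were searched for the E2F-type motif. The motif was any of TTTCCCGC, TTTCGCGC, TTTGCCGC and TTTGGCGC on either strand, in windows from 250 bases before to 50 bases after the RefSeq start, and it was chosen after the values were seen. A window was found for 34 of the 41 members, and 4 of these held a match (11.8%), against 4.87% of the genes past the filter and 2.60% of all genes with a window. The share of members was not limited to those past the filter, and *Phf19*, one of the 4, is under it. *Eed* was not among the 4. Of the 14 genes of cycling cells, 12 had a window, and 3 of them held a match (*Cdk1*, *Mcm5* and *Pclaf*). The 4 members were *Ezh2*, *Suz12*, *Phf19* and *Suv39h1*, and the stretches around their matches are shown 5′ to 3′ on the strand of the gene (RefSeq, GRCm38.p6), with the matching letters in capitals. They lie at chr6:47594981-47595067 (minus strand), chr11:79992856-79992934 (plus strand), chr2:34914137-34914224 (minus strand) and chrX:8074378-8074465 (minus strand).
Ezh2: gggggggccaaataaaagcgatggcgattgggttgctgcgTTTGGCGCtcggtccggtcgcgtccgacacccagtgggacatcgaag
Suz12: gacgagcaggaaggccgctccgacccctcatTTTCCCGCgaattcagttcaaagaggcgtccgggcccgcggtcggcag
Phf19: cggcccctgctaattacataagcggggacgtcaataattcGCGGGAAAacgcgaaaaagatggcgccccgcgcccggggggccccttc
Suv39h1: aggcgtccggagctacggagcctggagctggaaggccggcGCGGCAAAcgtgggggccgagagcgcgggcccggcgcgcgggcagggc

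In *Ezh2* the match begins at base 4 counted from the RefSeq start. The GENCODE gene begins further upstream, at 47595341. The match reads on the strand of the gene in *Ezh2* and *Suz12*, whereas in *Phf19* and *Suv39h1* it reads on the other strand. The log2 ratios of these 4 genes were 0.01, 0.13, 0.38 and 0.06, and those of *Cdk1*, *Mcm5* and *Pclaf* were 0.26, 0.05 and 0.09. A match is a description of letters and was not tested as a binding site.

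In PRC1, the level differed more between the ligases than between the groups of mice. *Rnf2*, the principal ubiquitin ligase of PRC1, had means of 71.7 in control and 74.9 in mutant mice. *Ring1*, its paralog, had 21.4 and 19.7 (log2 ratio -0.12). Per kilobase, *Rnf2* held 67.1% of their combined level in the controls and 69.8% in the mutants, a shift of 2.71 percentage points that was the largest over all 29 genes in 8 families compared in this way.

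The PCGF proteins decide which form of PRC1 a ligase joins, with *Pcgf2* and *Bmi1* in the canonical forms that carry CBX and PHC subunits. *Bmi1*, known for its role in stem cell maintenance, had means of 69.0 in control and 70.4 in mutant mice (0.03), and *Pcgf2* had 35.7 and 36.7 (0.04). Of the variant PCGF genes, *Pcgf3* had means of 90.2 and 99.0 (0.13), *Pcgf6* had 18.1 and 19.0 (0.07), and *Pcgf1* had 4.98 and 5.69 (0.19), under the filter on means. *Pcgf5* (chromosome 19, 36348309 to 36460970) had the largest log2 ratio of the 39 members, 0.25, from means of 11.3 and 13.5, and lay at percentile 87.2 of its neighbours. All 6 PCGF genes, with *Pcgf1* under the filter, were thus higher in the mutant means, each within the range of genes of like level. Of all genes past the filter, 50.3% were higher, and a shift of the family was not tested. Per kilobase, *Bmi1* led with 18.7 in the controls and *Pcgf2* followed with 12.6, while *Pcgf5* was lowest with 1.68.

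Among the chromobox genes, *Cbx6* had means of 163.2 in control and 175.7 in mutant mice (log2 ratio 0.11). It provided 71.1% of the level per kilobase of the 4 listed CBX genes in the controls and 73.4% in the mutants. *Cbx2* had means of 17.6 and 17.9, and *Cbx7* had 10.6 and 10.5. *Cbx8* (chromosome 11, 119036305 to 119040969) had the lowest log2 ratio of all members, -0.20, from means of 13.2 and 11.5. Its percentile of 8.80 among genes of like mean was also the lowest of the members. The polyhomeotic genes, whose products polymerize and compact Polycomb domains, had log2 ratios of -0.10 for *Phc1*, 0.00 for *Phc2* and -0.10 for *Phc3*. The means of *Phc1* were 56.4 in control and 52.7 in mutant mice, those of *Phc2* were 70.4 and 70.2, and those of *Phc3* were 126.9 and 118.5. Over the 14 PRC1 members past the filter, 8 were higher and 6 lower.

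**Figure D3:**
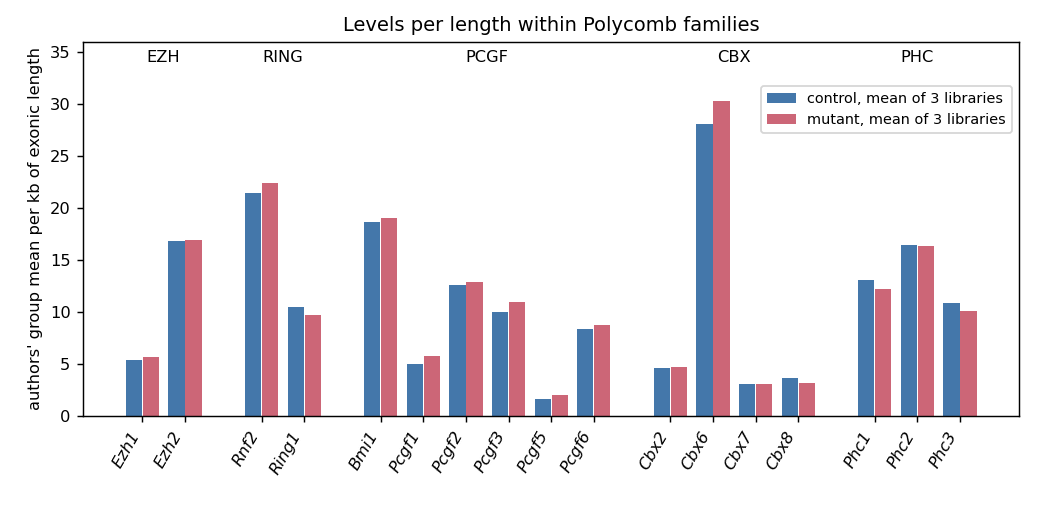
Authors' group means per kilobase of exonic length for the EZH, RING, PCGF, CBX and PHC genes, with paired bars for control and mutant means of 3 libraries each. *Cbx6* is the highest gene, at 28.1 in control and 30.3 in mutant mice, and the order within each family is the same in both groups.

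The enzymes that methylate lysine 4 of histone H3 were the role with the lowest median past the filter among groups of more than 2 members, at -0.07. *Kmt2a* (chromosome 9, 44803355 to 44881296), which maintains *Hox* gene expression, had means of 153.4 in control and 139.6 in mutant mice (log2 ratio -0.14). *Kmt2d* (chromosome 15, 98831669 to 98871204), a main enhancer methyltransferase, had 156.1 and 143.4 (-0.12), and *Kmt2c*, its paralog, had 139.9 and 134.1 (-0.06). *Setd1b* had means of 74.4 and 70.1 (-0.09). The other two differed in direction: *Kmt2b*, a paralog of *Kmt2a*, had 66.1 and 69.6 (0.07), and *Setd1a*, whose product places much of the bulk trimethyl mark, had 45.3 and 49.1 (0.11). The percentiles of the 6 genes among their neighbours ran from 16.6 to 87.0. Per kilobase the 6 lay close together, between 6.86 for *Setd1a* and 9.34 for *Kmt2c* in the controls.

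The 4 genes for the marks of transcribed gene bodies had log2 ratios between -0.06 and 0.06. *Setd2*, the enzyme for trimethylation of lysine 36, had means of 171.4 in control and 171.9 in mutant mice (0.00). *Ash1l*, a lysine 36 dimethyltransferase that opposes Polycomb, had 190.2 and 193.0 (0.02), and *Dot1l*, the lysine 79 enzyme, had 52.5 and 54.7 (0.06). *Nsd1*, another lysine 36 dimethyltransferase, was the most abundant member by group mean, at 315.6 and 302.7 (-0.06). Per kilobase, *Nsd1* and *Setd2* were similar in the controls, at 23.1 and 20.5.

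Among the enzymes for lysine 9 of histone H3, which mark repressed chromatin, *Setdb1* (chromosome 3, 95323525 to 95357202), which silences retroelements, had means of 61.0 in control and 66.6 in mutant mice (0.13). *Ehmt1* and *Ehmt2*, the partners of the dimethyl mark, had log2 ratios of -0.01 and -0.06, with means of 71.4 and 71.0 for *Ehmt1* and of 132.0 and 126.9 for *Ehmt2*. *Suv39h1*, which trimethylates pericentric chromatin, had means of 32.1 and 33.5 (0.06). The acetyltransferase genes *Ep300* and *Crebbp*, coactivators of enhancers, were at -0.06 each, with means of 131.9 and 126.9 for *Ep300* and of 119.4 and 114.4 for *Crebbp*. The demethylase *Kdm1a*, which acts on lysine 4, had means of 85.0 and 82.9 (-0.04). *Kdm6b*, which removes the PRC2 mark, had 84.7 and 78.9 (-0.10).

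The direction of such small ratios depended on the scaling. Scaling to the total of all genes added 0.06 to each log2 ratio, and 8 members changed sign (*Rbbp4*, *Cbx7*, *Phc2*, *Nsd1*, *Ehmt1*, *Ehmt2*, *Ep300* and *Kdm1a*), so that 29 were higher and 10 lower. The 4 lysine 4 methyltransferases named as lower stayed below zero, although *Kmt2c* was then at 0.00 when rounded. *Pcgf5* then stood at 0.31, above 1.2-fold.

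Length was examined at 7 kb, a value chosen after the ratios were seen. Of the 12 members with more than 7 kb of exonic sequence, 8 had a lower mean in the mutants, and of the 27 shorter ones 10 had. Their median log2 ratios were -0.06 and 0.04. The 8 include *Kmt2a*, *Kmt2c*, *Kmt2d* and *Setd1b*, so this split is not separate from the low median of the lysine 4 enzymes. *Nsd1* and *Ep300*, also among the 8, changed sign when scaled to the total of all genes. Over all genes past the filter, 57.1% of the 1347 longer than 7 kb and 48.6% of the shorter ones were lower, with medians of -0.02 and 0.00. Spearman's rho between length and log2 ratio was -0.22 over the 39 members and -0.03 over 10189 genes, given as a description of genes that share the same 6 libraries.

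Some values may include reads of other genes, through shared sequence or because the strand setting of the counting is not given in the sources used here. In GENCODE vM21, exons of 14 members overlap exons on the other strand. More than 5% of the 50-base words of the longest coding transcript were shared with other annotated genes for 10 members, led by *Setd1a* (54.0%), *Rbbp4* (33.8%), *Pcgf1* (31.3%) and *Suv39h1* (20.5%). *Bmi1* (18.5%) and *Rbbp7* (15.1%) followed. Words were compared on either strand, and exons on the other strand covered 0.44% of the exonic length of *Setd1a* and 0% of that of *Pcgf1*. The levels of the genes named here are uncertain because of the shared words.

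The other genes of these pathways were described from 5 lists with 71 genes, of which 67 had a mean of at least 10. Of these 67, 34 were higher and 33 lower, with a median log2 ratio of 0.00. Beyond 1.5-fold there were 3. *Asxl3*, a partner of the histone H2A deubiquitinase BAP1 that opposes PRC1, had means of 87.5 in control and 47.5 in mutant mice (log2 ratio -0.88). Its paralogs *Asxl1* and *Asxl2* had log2 ratios of -0.01 and 0.06, and *Bap1* had -0.10. The other 2 past 1.5-fold were the Y-linked demethylase genes *Kdm5d* and *Uty*. Among 20 other Polycomb subunits and partners, 19 passed the filter, and 18 of them had log2 ratios between -0.11 and 0.24, the exception being *Asxl3*. The 10 partners of the lysine 4 methyltransferases ran from -0.11 to 0.20, and the 8 other acetyltransferases from -0.12 to 0.11. Of 14 other methyltransferases 13 passed the filter, and none was past 1.5-fold. Their log2 ratios ran from -0.55 for *Mecom* to 0.20 for *Smyd3*, with *Setd7* at -0.28 and *Kmt5c* at -0.27.

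The sex-linked transcripts differed between the groups, which bears on every ratio given here, including those of the X-linked members *Rbbp7* and *Suv39h1*. *Ddx3y*, *Eif2s3y*, *Uty* and *Kdm5d* had means of 65.3, 25.3, 29.8 and 27.4 in the mutants, and all 4 were at or under the level of 3 reads per library in the controls. *Xist* had means of 3368 in control and 813.8 in mutant mice. The X-linked demethylase genes *Kdm6a* and *Kdm5c*, which escape X inactivation, had log2 ratios of -0.49 and -0.33. *Rbbp7* and *Suv39h1* were at 0.10 and 0.06, the 355 X-linked genes past the filter had a median of -0.03 and the 9814 autosomal genes one of 0.00. The labels give no sex, and effects of sex and of genotype cannot be told apart in these means, for members on any chromosome.

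Genes known to be silenced by Polycomb in many adult tissues were low in both groups. Of the 39 *Hox* genes, 4 were in the table, and their means over both groups ran from 0.115 to 1.35. The highest was *Hoxd8*, with 1.32 in control and 1.38 in mutant mice. Of 20 other lineage regulators and cell cycle inhibitors known as Polycomb targets, 5 were in the table, none with a mean of at least 10. The highest, *Sox17*, had 6.33 and 5.68. *Cdkn2a*, the classical *Bmi1* target that encodes p16 and ARF, had means of 0.286 and 0.457, and its neighbour *Cdkn2b* had 1.22 and 2.07. At such levels the means are too low for a ratio to be read.

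Markers of several cell types differed between the group means. Of 11 dental epithelium markers, 10 passed the filter and all 10 were higher in the mutants by more than 1.5-fold, with a median log2 ratio of 1.18. The enamel matrix genes *Enam*, *Amelx* and *Ambn* had log2 ratios of 3.87, 3.45 and 2.44, and the other 7 lay between 0.78 and 1.23. The summed level of the 10, 1646 in control and 10399 in mutant mice, was thus mostly that of these enamel genes in the mutants. *Klk4* of the same list was at 1.49 and 1.21. Of 8 dental mesenchyme markers, 7 passed the filter with a summed level of 644.5 in control and 568.7 in mutant mice, and *Barx1* was near the bottom at 0.932 and 0.516. *Gli1*, the locus that drives the recombinase, had means of 106.4 and 46.1 and made up most of the difference between the summed levels of this list. The mutants carried *Gli1-CreER* and the *Arid1b* fl/fl controls of the methods did not. The *Gli1* ratio therefore cannot be read as that of a cell type. The other mesenchyme markers past the filter had log2 ratios from -0.24 for *Lhx6* to 0.22 for *Twist1*. Of the 7, with *Gli1* counted among them, 2 were higher and 5 lower, with a median of -0.15. Macrophage markers had a summed level of 228.1 and 259.3, endothelial markers 319.1 and 322.1, and perivascular markers 564.6 and 512.1. Of the 4 perivascular markers, *Rgs5* and *Notch3* had log2 ratios of -0.27 and -0.22, and *Acta2* and *Myh11* had 0.49 and 0.18. The 4 odontoblast markers had a summed level of 5860 and 4699 and a median log2 ratio of -0.27. *Dmp1* was lower by more than 1.5-fold, at 68.1 and 23.7, whereas *Dspp* and *Phex* had log2 ratios of -0.32 and -0.22 and *Ibsp* one of 0.06. Schwann cell and skeletal muscle markers had no gene with a mean of 10, and of 3 erythroid markers *Hbb-bs* alone reached it, at 29.0 and 9.97. The part of tissue makeup in the members' ratios was not tested.

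Genes of cycling cells had a higher median than the members. Of 14 listed genes, all passed the filter, 12 had the higher mean in the mutants, and their median log2 ratio was 0.27. Their summed level was 741.5 in the controls against 875.3 in the mutants, and the part of this in the members' ratios was not tested. *Ccnb1*, which drives entry into mitosis, had means of 22.9 in control and 35.6 in mutant mice (0.63), while the replication genes *Mcm2* and *Pcna* were at -0.10 and 0.00. *Mcm5*, *Rrm2* and *Pclaf* were at 0.05, 0.06 and 0.09, and the rest of the list ran from 0.25 for *Mki67* to 0.63 for *Ccnb1*. *Ezh2* and *Suv39h1*, genes known to be expressed with the cell cycle, were at 0.01 and 0.06. Of 7 immediate early genes, which respond within minutes to many stimuli, 3 passed the filter, and *Jun* and *Egr1* were higher by more than 1.5-fold, at 0.68 and 0.89.

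**Figure D4:**
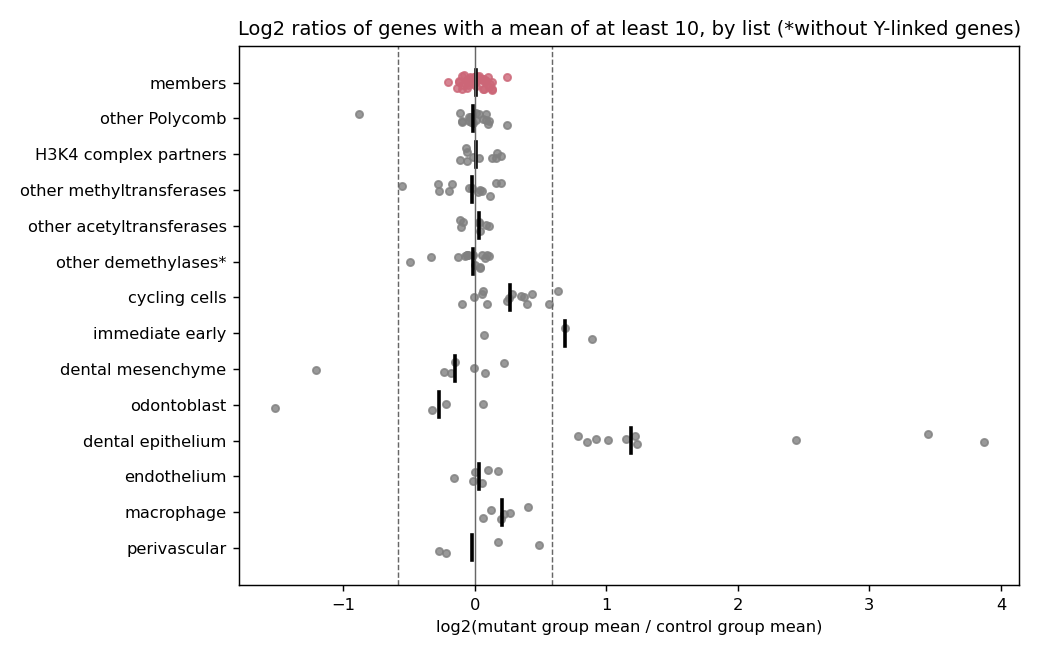
Log2 ratios of genes with a mean of at least 10, 1 point per gene, by list, with black bars for medians and dashed lines at 1.5-fold; the Y-linked demethylase genes are left out. The members lie between -0.20 and 0.25, whereas dental epithelium markers start at 0.78 and *Asxl3* stands apart at -0.88.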

How the data were processed

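Per the labels and the study's methods, reads were trimmed, aligned to mm10 and compared in Partek Flow. The submitters' processing notes name TopHat2 2.0.8. The counting, its strand setting and its annotation are not given in the sources used here. The authors deposited a normalized signal, as 1 mean per gene and group, and a summary of each library. Averaged over genes, the group means gave 53.05 and 50.87, as did the 3 library means of each group, so they were read as arithmetic means. The value of 3 reads was taken as 4 times the lowest value of a library, assuming that 1 was added to each count, with group floors of 0.103 and 0.0923. The 4 columns of the authors' own comparison (p-values, FDR, ratios and fold changes), their filtered gene list and 2 numeric columns of the library summary were not used. Depth in reads is unknown, so no counting interval is given.

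Log2 ratios of the group means were computed here without a pseudocount where the mean over both groups was 10 or more, and were counted past 1.5-fold (the study's threshold) and 1.2-fold. In the gene lists, values at or under the floor were set to it, whereas the ratios over all genes and over neighbours were left as they were. Lengths and positions are from the GENCODE vM21 basic annotation (GRCm38, also called mm10), in which 18840 of the 19270 names matched 1 gene. All members were named. Of other lists, genes past 1.5-fold with a mean of at least 10 were named, up to 4 a list, with Arid1b and the sex-linked list; others were named after their values were seen. The members and lists were chosen with earlier results of these data known. The calculations were tested on simulated data. Figures were drawn with matplotlib 3.10.9, and the rest was done in Python 3.11.15 with scipy 1.17.1, pandas 2.3.3 and numpy 2.4.6.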

Additional observations from a re-analysis of the deposited data

How the results depend on the processing

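No paired analysis was possible because the gene table holds group means and no value per library, and for the same reason no replicate could be left out and no test across mice was run. With a pseudocount of 1, scaling to the total of all genes or centring on the median of all genes, the median log2 ratio of the members lay between 0.01 and 0.07, and no member passed 1.5-fold. That count was also 0 in both directions at 1.2-fold, at 2-fold, without a filter on means and with a mean of at least 50. No member lay outside the central 95% of 200 or of 2000 genes of like mean. With the length of the longest coding transcript, added after the data were seen, 159 of 162 pairs within a role kept their order per kilobase. When lists were summarised by their mean rather than by the median, the value was 0.91 for the other demethylases, which include the Y-linked genes, -0.50 for odontoblast markers and 1.69 for dental epithelium markers. The cause was not tested. With 1 mean per group and no spread between mice, no difference of any size could be set against replicate error.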
